A study of Mus musculus with 2 samples.

Results

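The mitochondrial solute carriers of the SLC25 family were described in hearts of female mouse pups, 10 days after birth. A gene was taken as a member when its symbol starts with Slc25a and at least 1 of its annotated transcripts is protein-coding. This rule gave 47 genes of the 55450 annotated genes held by all tables, or of the 21901 genes with a protein-coding transcript. The 48 annotated Slc25a symbols include 1 that is no member, the pseudogene Slc25a5-ps, at 0 and 0.05 TPM (a level corrected for transcript length and scaled to a fixed total) in the RSEM tables. The single group was strain B6CASTF1/J, by its name the F1 hybrid between C57BL/6J and CAST/EiJ, with no treatment named in the labels. It held 2 animals, biological replicates 1 and 2, filed under the same donor record. Each animal gave 1 total RNA library from 300 ng of RNA with ERCC spike-ins, which are synthetic RNAs added in known proportions. With no second condition, the comparisons are between members within a heart and between the 2 hearts.

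SLC25 proteins are encoded in the nucleus, and nearly all sit in the inner mitochondrial membrane. They exchange or co-transport nucleotides, phosphate, keto acids, amino acids, carnitine esters, iron and cofactors between the cytosol and the matrix. In cardiac muscle, the adenine nucleotide translocase and the phosphate carrier supply ATP synthase with its substrates and export the ATP. The carriers of the malate-aspartate shuttle bring in reducing equivalents, and the carnitine carrier brings in fatty acids for oxidation.

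Replicate 1 held 40403041 and replicate 2 held 39849597 expected counts, and the family took 182763 and 194851 of these. The tissue label was read against markers. The 6 cardiomyocyte genes Myh6, Actc1, Tnnt2, Tnni3, Ryr2 and Myl2 summed to 29576 TPM in replicate 1 against 31247 TPM in replicate 2. The 4 testis genes were at 0 in both libraries, and the 3 liver genes summed to 0.99 and 3.68 TPM. Some other markers differed between the hearts. The 8 red cell genes summed to 5271 and 12990 TPM, with 8 of 8 over 1.5-fold higher in replicate 2. The 4 atrial genes summed to 507 and 937 TPM, with 4 of 4 over 1.5-fold higher. The 5 fat cell genes summed to 64.5 and 10.1 TPM, with 5 of 5 over 1.5-fold lower. In RNA from whole tissue, fewer cells of a type and less RNA per cell cannot be told apart.

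The family holds close copies of the same carrier, and the sequences that set apart the copies in the most abundant carriers are shown here from GENCODE M21 on GRCm38 (mm10). Slc25a3, the phosphate carrier, has a pair of mutually exclusive coding exons, of which the upstream one is known as the form used in heart and skeletal muscle. The upstream exon lies at chr10:91122207-91122331 on the minus strand and is 125 nt long, and the downstream exon lies at chr10:91121922-91122043 and is 122 nt long. They are printed 5′ to 3′ in the sense of the gene, with capitals for the bases that are identical in the alignment, which were 77 of 125 aligned positions (61.6%).
Slc25a3 upstream exon: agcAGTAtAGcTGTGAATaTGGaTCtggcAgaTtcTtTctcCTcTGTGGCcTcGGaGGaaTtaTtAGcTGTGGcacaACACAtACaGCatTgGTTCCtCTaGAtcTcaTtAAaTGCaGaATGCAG
Slc25a3 downstream exon: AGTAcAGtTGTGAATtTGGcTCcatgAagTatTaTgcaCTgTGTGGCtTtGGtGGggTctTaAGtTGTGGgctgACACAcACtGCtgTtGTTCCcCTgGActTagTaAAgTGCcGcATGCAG

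Slc25a4 and Slc25a5 encode the adenine nucleotide translocases known as ANT1 and ANT2. The coding sequences of both are 894 nt long and were identical at 77.4% of positions. The coding sequence of Slc25a31, the testis form, is 960 nt long and was identical to Slc25a4 at 61.5% of aligned positions. The start of the coding sequence is shown for the pair, at chr8:46210812-46210922 on the minus strand for Slc25a4 and at chrX:36795731-36795841 on the plus strand for Slc25a5. Capitals mark the 86 of 111 identical bases.
Slc25a4 coding start: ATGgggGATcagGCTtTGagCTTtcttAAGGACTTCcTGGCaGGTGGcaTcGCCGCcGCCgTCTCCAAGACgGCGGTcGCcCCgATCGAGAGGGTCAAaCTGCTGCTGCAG
Slc25a5 coding start: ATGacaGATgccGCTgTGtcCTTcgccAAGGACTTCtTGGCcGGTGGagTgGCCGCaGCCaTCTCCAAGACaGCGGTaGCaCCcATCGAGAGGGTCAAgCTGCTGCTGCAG

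The third sequence is a 116 nt coding exon of Slc25a12 that the most abundant annotated transcript of this gene lacks. Slc25a12 is the calcium-regulated aspartate-glutamate carrier called aralar. The exon lies at chr2:71333605-71333720 on the minus strand, and nothing is capitalized because it is not compared with another sequence.
Slc25a12 skipped exon: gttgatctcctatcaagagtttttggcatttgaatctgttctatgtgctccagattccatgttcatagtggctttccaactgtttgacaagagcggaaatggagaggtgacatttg

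Most of the family was expressed in the day 10 heart, and 3 genes made up most of its RNA. Of the 47 members, 37 (78.7%) reached at least 1 TPM in both libraries, while 11715 of the 21901 genes with a protein-coding transcript (53.5%) did. The median over all 47 members was 5.75 TPM in replicate 1 and 5.98 TPM in replicate 2 (5.87 ± 0.163, SD, n = 2). Among the detected genes only, the median level of members was 9.99 and 10.8 TPM and that of the protein-coding genes 10.9 and 10.9 TPM. The detected members therefore lay near the middle of the detected genes, apart from a few very abundant ones. By mean level, 4 members were at 100 TPM or more, 10 between 20 and 100, 12 between 5 and 20, 13 between 1 and 5, and 8 under 1 TPM. Slc25a4, Slc25a3 and Slc25a5 together held 77.8% of the family's summed TPM in replicate 1 and 78.7% in replicate 2. The sum over all members was 3498 and 3803 TPM.

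**Figure D1:**
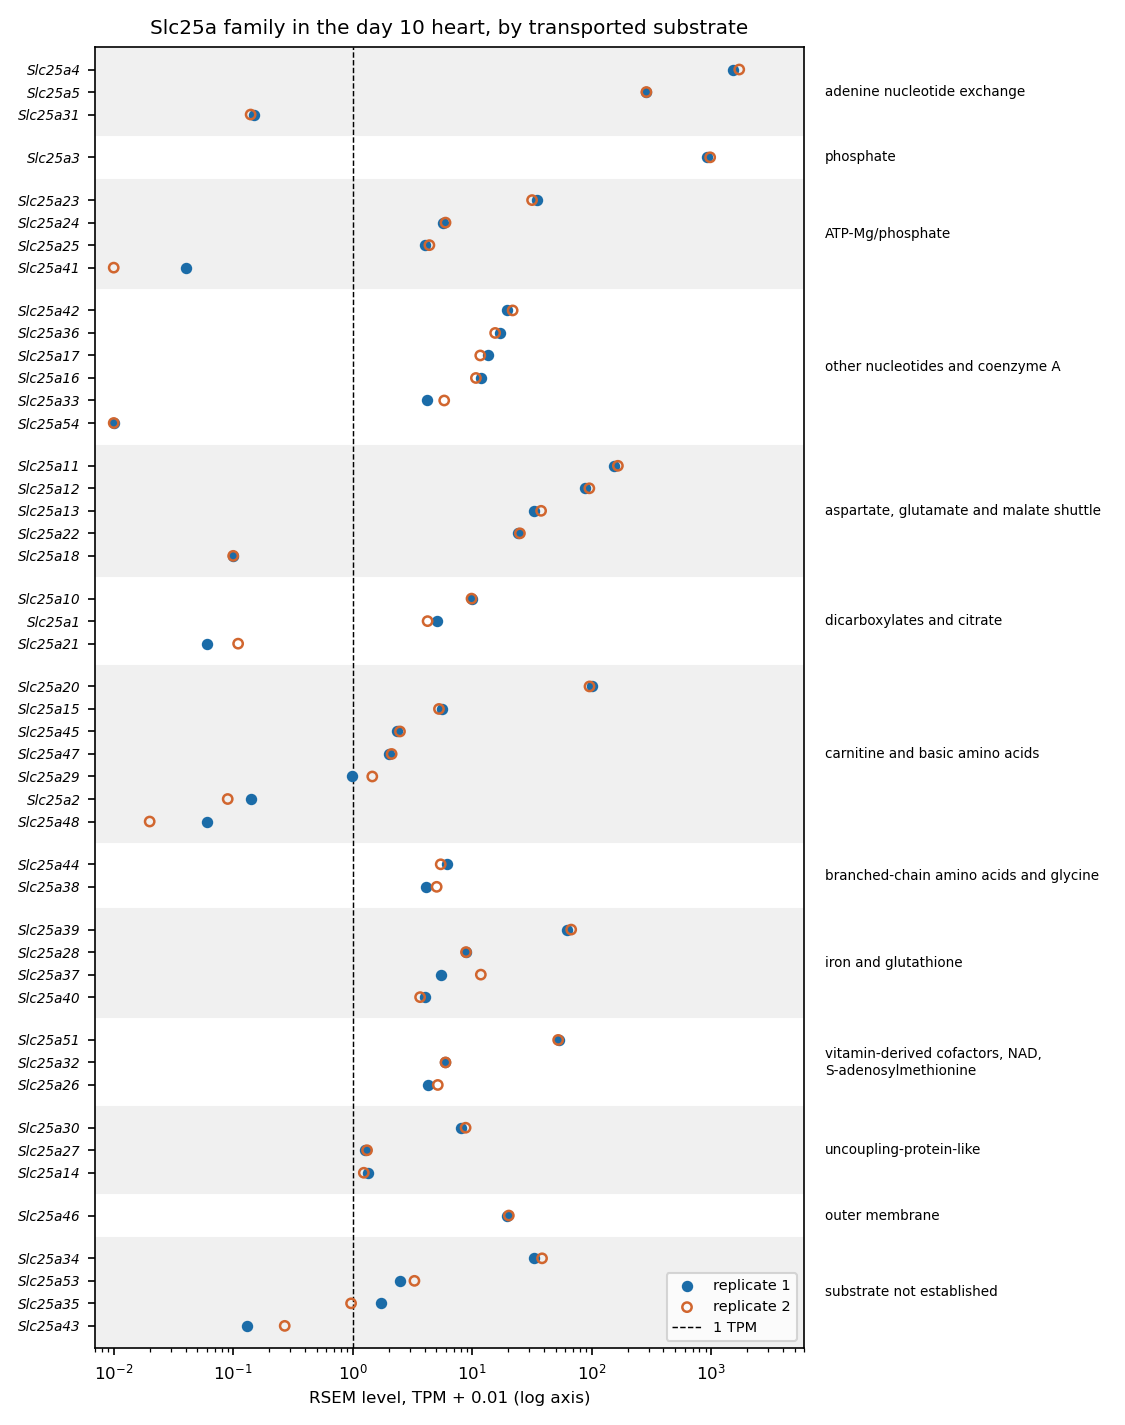
Level of 46 Slc25a members in replicate 1 (filled) and replicate 2 (open), as RSEM TPM + 0.01 on a log axis, grouped by transported substrate and ordered within a group by mean level. Points at the left edge are levels of 0 in that replicate, and the dashed line marks 1 TPM. Slc25a4 and Slc25a3 stand to the right of all others.

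Adenine nucleotide exchange was the largest group by level, and its members were ordered in the same way in both hearts. Slc25a4 (chr8:46206797-46211284) stood at 1519 TPM in replicate 1 against 1722 TPM in replicate 2, rank 30 of the 21901 genes with a protein-coding transcript. It alone held 43.4% and 45.3% of the family's TPM, and 0.211% (exact 95% interval 0.209 to 0.212) and 0.236% (0.235 to 0.238) of each library's counts. Slc25a5 (chrX:36795651-36798807), the form known from proliferating cells, stood at 285 and 288 TPM. The log2 ratio of Slc25a5 to Slc25a4, taken on TPM + 0.1 within a library, was -2.41 and -2.58 (-2.50 ± 0.12, SD, n = 2), a 5.64-fold excess of Slc25a4. Slc25a31 stood at 0.14 and 0.13 TPM, from 9 and 8 counts. The 4 testis markers, which include the protamines Prm1 and Prm2, were at 0 in the same libraries.

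Slc25a3, the carrier that brings phosphate into the matrix and is also known to move copper, was next to Slc25a4. It stood at 917 and 983 TPM (chr10:91116574-91124059). The log2 ratio of Slc25a3 to Slc25a4 was -0.77 ± 0.06 (SD, n = 2), a 1.70-fold difference. Of the alternative exons printed above, the upstream one led. Transcripts with it held 88.5% of the gene's RSEM TPM in replicate 1 and 89.9% in replicate 2, and transcripts with the downstream exon held 10.5% and 9.38%. In the kallisto tables the upstream exon held 77.6% and 75.8% and the downstream exon 21.9% and 22.7%. The order of the exons was the same in the 4 tables, and the share of the downstream form differed more between the methods than between the hearts. The methods also placed the downstream form in different transcripts. RSEM gave Slc25a3-201 91.8 and 88.1 TPM and Slc25a3-203 4.32 and 4.15 TPM, whereas kallisto gave them 35.6 and 36.8 and 217 and 239 TPM.

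The ATP-Mg/phosphate carriers exchange adenine nucleotides for phosphate and so set the size of the matrix pool. Of the members listed here in this group, which leaves out Slc25a54, 3 of 4 were detected. Slc25a23 led with 34.9 and 31.8 TPM. Slc25a24, at 5.75 and 5.98 TPM, was lower by a log2 ratio of -2.49 ± 0.14, and Slc25a25, at 4.06 and 4.38 TPM, by -2.95 ± 0.17 (SD, n = 2 each). Slc25a41 was at 0.03 and 0 TPM, from a single count in replicate 1. A count of 0 was taken to allow up to 3 counts, or 7.53e-06% of the library of replicate 2, while the upper bound of the two-sided exact 95% interval is 9.26e-06%.

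The carriers of aspartate, glutamate and malate, which hold those of the malate-aspartate shuttle and 2 glutamate carriers, were the most abundant group after those of adenine nucleotides and phosphate, with summed levels of 299.6 and 324.8 TPM and 4 of 5 members detected. Slc25a11 (chr11:70644196-70647479), which exchanges oxoglutarate for malate, stood at 154 and 166 TPM. Slc25a12 stood at 88.7 and 95.8 TPM and its paralog Slc25a13, the form best known from liver and called citrin, at 33.1 and 37.8 TPM. The log2 ratio of Slc25a13 to Slc25a12 was -1.42 and -1.34 (-1.38 ± 0.06, SD, n = 2), and that of Slc25a12 to Slc25a11 was -0.79 in either library. By RSEM, most of the Slc25a12 level came from Slc25a12-207, 2392 nt long and not of the protein-coding type, at 59.2 and 65.9 TPM. The protein-coding Slc25a12-206, 6351 nt long, stood at 7.11 and 7.8 TPM, below Slc25a13-203 at 32.1 and 35.0 TPM. TPM is corrected for length, so both ratios depend on how reads were divided between these Slc25a12 transcripts, which is not resolved. Outside the shuttle, the glutamate carrier Slc25a22 stood at 24.1 and 25.1 TPM, while its paralog Slc25a18 was at 0.09 TPM in both, from 5 counts each. The 4 enzymes of the shuttle, Mdh1 and Mdh2 for malate and Got1 and Got2 for aspartate, summed to 1937 and 2144 TPM. Mdh1 was highest with 823 and 891 TPM, and Got1 lowest with 176 and 233 TPM. The enzymes of the glycerol phosphate shuttle, which serves the same purpose without an SLC25 carrier, summed to 55 and 43.4 TPM.

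Carriers of dicarboxylates and citrate were low beside the shuttle. Slc25a10, the dicarboxylate carrier, stood at 9.99 and 9.88 TPM, a log2 ratio to Slc25a11 of -3.99 ± 0.09 (SD, n = 2). Slc25a1, the citrate exporter that feeds fatty acid synthesis in the cytosol, stood at 5.12 and 4.23 TPM, a log2 ratio to Slc25a11 of -5.07 ± 0.27. Slc25a21, the oxodicarboxylate carrier, was at 0.05 and 0.1 TPM.

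Slc25a20, the carnitine-acylcarnitine carrier of fatty acid oxidation, stood at 101.4 and 96.1 TPM (chr9:108662088-108684641). It led the 7 members listed here under carnitine and basic amino acids, of which 4 were detected. The listing does not mean that the substrate of each is established. Slc25a29, a basic amino acid carrier, stood at 0.97 and 1.45 TPM, a log2 ratio to Slc25a20 of -6.26 ± 0.43 (SD, n = 2). The ornithine carrier Slc25a15 stood at 5.54 and 5.27 TPM and its paralog Slc25a2 at 0.13 and 0.08 TPM. Slc25a45 and Slc25a47 had means of 2.42 and 2.07 TPM, and Slc25a48 a mean of 0.03 TPM. The acyltransferases that work with Slc25a20 were abundant as well. Cpt1b, the muscle form of the enzyme that makes acylcarnitine, stood at 290 and 253 TPM, Cpt1a at 57.9 and 51.3 TPM and Cpt2, on the matrix side, at 89.5 and 93.8 TPM.

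All 4 carriers of iron and glutathione were detected. Slc25a39, a glutathione carrier, stood at 62.4 and 67.5 TPM, and its paralog Slc25a40 at 4.04 and 3.66 TPM, a log2 ratio of -4.04 ± 0.18 (SD, n = 2). The mitoferrins, which import iron for heme and iron-sulfur clusters, differed in order between the hearts. Slc25a28, the broadly expressed mitoferrin 2, stood at 8.88 TPM in both hearts. Slc25a37, mitoferrin 1 of red cell precursors, stood at 5.44 TPM in replicate 1 against 11.8 TPM in replicate 2. Their log2 ratio was -0.70 in replicate 1 and 0.41 in replicate 2 (-0.14 ± 0.78).

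The carriers of cofactors were detected. Slc25a51, the NAD carrier, stood at 53.2 and 52.5 TPM (chr4:45395923-45408766). Slc25a32, known for folate and FAD, and the S-adenosylmethionine carrier Slc25a26 had means of 5.94 and 4.71 TPM. Among the carriers listed under other nucleotides and coenzyme A, 5 of 6 were detected. The coenzyme A carrier Slc25a42 stood at 19.6 and 21.8 TPM and Slc25a16, also tied to coenzyme A, at 11.9 and 10.8 TPM. The pyrimidine nucleotide carriers Slc25a36 and Slc25a33 stood at 17.1 and 15.6 TPM and at 4.16 and 5.83 TPM, a log2 ratio of -1.71 ± 0.43 in the direction of Slc25a36 (SD, n = 2). Slc25a17, a carrier of the peroxisome rather than the mitochondrion, had a mean of 12.6 TPM. Slc25a54 had no count in either library. It is listed here without evidence on its substrate from these data. Placed in another group, such as that of its neighbour Slc25a24, it would change the counts of members but no summed level.

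The remaining members were mostly low. The 3 members named after their likeness to uncoupling proteins were detected, and Slc25a30, at 8.14 and 8.81 TPM, was above Slc25a14, at 1.33 and 1.23 TPM, by a log2 ratio of 2.64 ± 0.15 (SD, n = 2). Slc25a27 stood at 1.26 and 1.31 TPM and was not apart from Slc25a14 (log2 ratio 0.01 ± 0.11). Slc25a44 for branched-chain amino acids and Slc25a38 for glycine had means of 5.80 and 4.59 TPM. Slc25a46, which sits in the outer membrane and is known for mitochondrial shape, stood at 19.7 and 20.3 TPM. Of the 4 members with no established substrate, Slc25a34 was highest with 32.7 and 38.5 TPM. Its paralog Slc25a35 stood at 1.72 and 0.96 TPM, Slc25a53 at 2.5 and 3.28 TPM, and Slc25a43 at 0.12 and 0.26 TPM.

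In all, 19 pairs of related carriers were compared within each library, and 17 were read as apart, which means a ratio of equal sign in the 2 libraries with a mean beyond 3 SD. The exceptions were Slc25a37/Slc25a28 and Slc25a27/Slc25a14. By kallisto, Slc25a16/Slc25a42 was not apart either, at a log2 ratio of -0.03 ± 0.28 in place of -0.87 ± 0.21 by RSEM, and Slc25a27/Slc25a14 was, at 0.04 ± 0.005 (SD, n = 2 each). The SD is taken over 2 libraries, and the rule holds no counting error and no least difference. The pairs that hold Slc25a12 also depend on how its reads were divided between transcripts. Slc25a27 had 76 and 90 RSEM counts, and Slc25a14 had 62 and 53. The pairs were chosen with earlier results known, and no share over other gene pairs was computed. The count of 17 is therefore a description. Because 2 libraries allow no exact p below 0.5, no p-value is given for any pair.

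**Figure D2:**
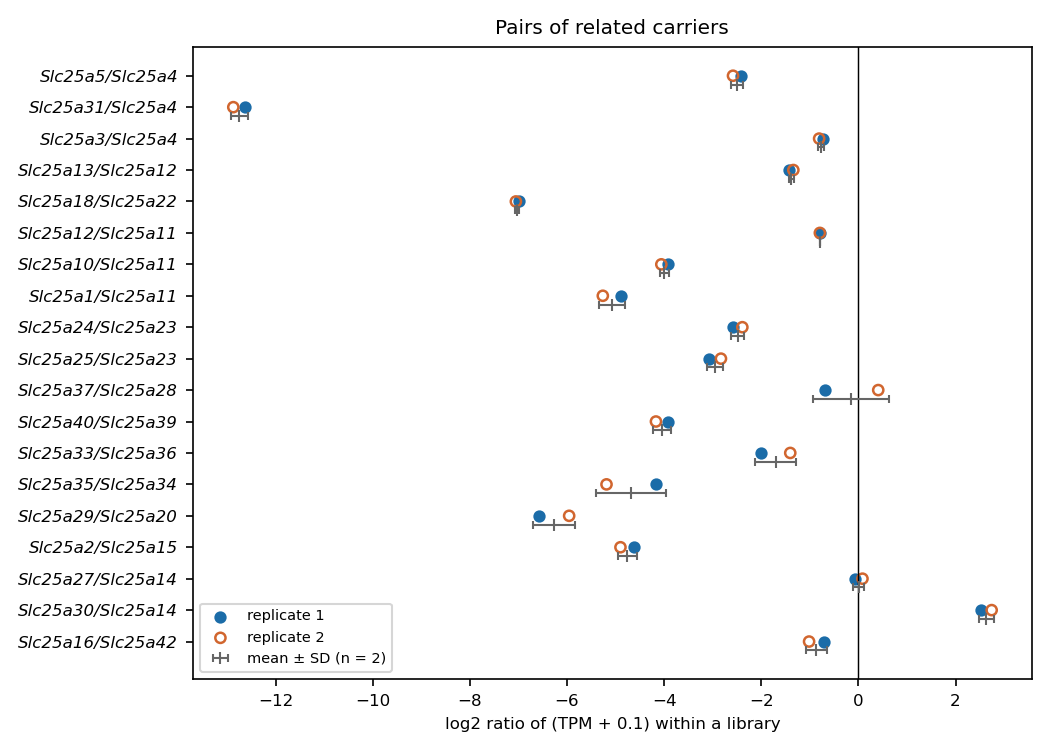
Log2 ratio of TPM + 0.1 for the 19 pairs of related carriers in replicate 1 (filled) and replicate 2 (open), with the mean ± SD (n = 2) drawn below the points. Only Slc25a37/Slc25a28 and Slc25a27/Slc25a14 have points on both sides of 0.

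Family genes that carry other symbols were read from a list beside the 47 members. Ucp2 and Ucp3, uncoupling protein relatives of the inner membrane, stood at 337 and 257 TPM and at 43.0 and 39.5 TPM. Mtch1 and Mtch2, outer membrane proteins of the same fold, stood at 139 and 141 TPM and at 82.9 and 77.9 TPM. Ucp1, the uncoupling protein of brown fat, stood at 44.5 TPM in replicate 1 against 6.85 TPM in replicate 2, and it was the only gene of these 5 that differed over 1.5-fold between the hearts. Ucp1 is also among the 5 fat cell genes and made up most of their sum, and the other fat cell genes were lower in replicate 2 as well, from 0.141-fold for Plin1 to 0.230-fold for Cfd. The part of fat cell RNA in the level of Ucp1 was not tested. The pyruvate carrier subunits Mpc1 and Mpc2, which belong to another family, stood at 142 and 169 TPM and at 163 and 186 TPM. Both lay near the level of Slc25a11.

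The 2 hearts were then compared member by member, to see which carriers varied between animals of the same group. Expected counts were scaled by TMM, which equalizes libraries on the bulk of genes, and a gene was read when its counts summed to at least 20. This left 39 members and 16512 genes. Between the hearts, 2 members (5.13%) differed over 1.5-fold, both higher in replicate 2, beside 8.06% of all genes read. Beyond counting error, judged by an exact 95% interval of the count ratio, 17 members (43.6%) differed, beside 27.0% of all genes. Counting error shrinks with depth and several members have many counts, and these intervals hold no variation between animals. The typical absolute log2 ratio, as a median, was 0.15 among detected members and 0.10 among the 12833 detected genes.

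Slc25a37 was the member with the widest difference. Its expected count was 753 in replicate 1 and 1511 in replicate 2, a 2.06-fold ratio with an exact 95% counting interval of 1.89 to 2.25. The 2 hearts differed most in the coding transcript that leads the gene. By RSEM, Slc25a37-201 stood at 3.49 TPM in replicate 1 against 9.84 TPM in replicate 2, whereas the retained-intron transcript Slc25a37-203 stood at 1.54 and 1.33 TPM and Slc25a37-204, of the nonsense-mediated decay type, at 0.41 and 0.65 TPM. By kallisto the same transcripts stood at 4.00 and 11.5 TPM, at 2.12 and 1.99 TPM and at 0.646 and 1.01 TPM. Markers of red cells moved with it. Of the 8 red cell genes none was at 0, and Alas2, the erythroid enzyme of heme synthesis, stood at 28.0 and 68.4 TPM, a 2.34-fold ratio. The globin Hbb-bs stood at 1777 and 4557 TPM, a 2.59-fold ratio. The part of red cell RNA in the level of Slc25a37 was not tested. Slc25a38, the glycine carrier needed for heme synthesis, was 1.19-fold higher in replicate 2 with a counting interval of 0.957 to 1.48, and Slc25a28 was 0.942-fold with an interval of 0.820 to 1.08, so neither differed beyond counting error.

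Slc25a29 was the other member over 1.5-fold. It had 53 and 79 counts, a 1.53-fold ratio with a counting interval of 1.07 to 2.21. At this depth the interval spans from near equality to more than a 2-fold difference, and scaled by spike-ins the log2 ratio fell below the 1.5-fold line, at 0.50. Slc25a33, the pyrimidine nucleotide carrier, was just inside that line at 1.41-fold (233 and 320 counts, interval 1.19 to 1.68).

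**Figure D3:**
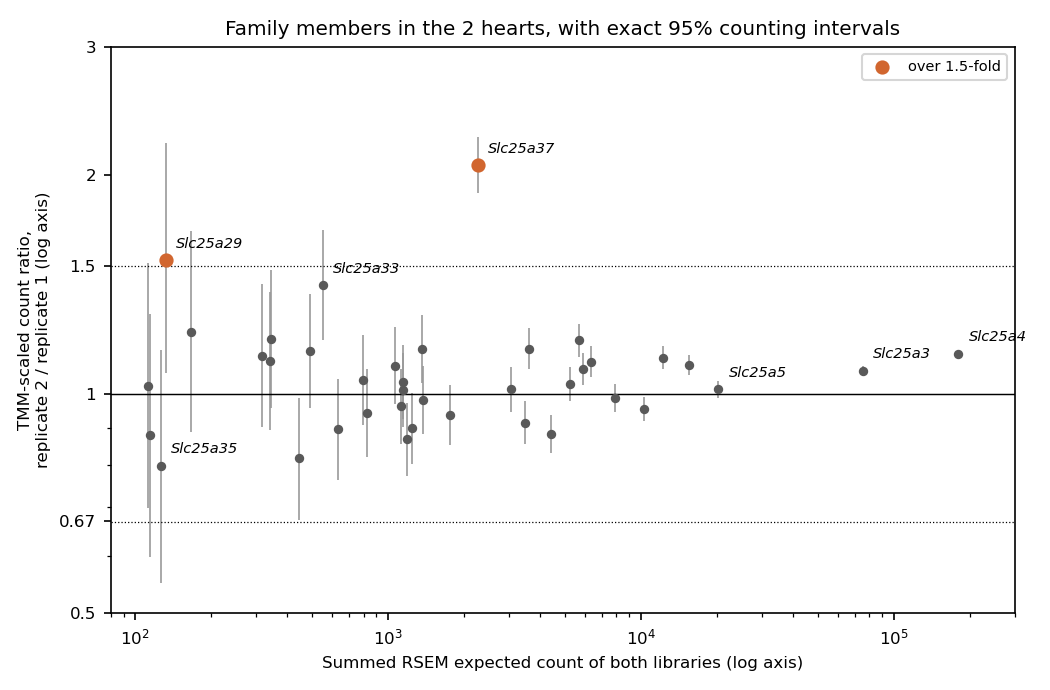
Ratio of TMM-scaled expected counts, replicate 2 over replicate 1, against the summed count for the 39 members read, both on log axes. Bars are exact 95% counting intervals and dotted lines mark 1.5-fold in either direction; Slc25a37, at 2.06-fold, stands apart with a narrow interval, and Slc25a29, at 1.53-fold, has a wide one.

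The other members that differed beyond counting error did so by less. The higher ones in replicate 2 were, beside those named, Slc25a4, Slc25a3, Slc25a11, Slc25a12, Slc25a13, Slc25a34, Slc25a39, Slc25a42 and Slc25a30. Their ratios ran from 1.08 for Slc25a3 to 1.19 for Slc25a34. With spike-in scaling, 6 members were higher beyond counting error in place of 12. The 6 that lost the call were Slc25a3, Slc25a11, Slc25a13, Slc25a30, Slc25a39 and Slc25a29, and the log2 ratio of Slc25a3 was then -0.00134, so that its direction does not hold. Slc25a4 was 1.14-fold higher with an interval of 1.13 to 1.15, a log2 ratio of 0.18 that became 0.08 with spike-in scaling. On the TMM scale, 5 of 6 cardiomyocyte markers were also higher in replicate 2. Myh6 was at 1.14-fold, Tnni3 at 1.12-fold and Myl2 at 0.959-fold. Spike-in scaling moved the median log2 ratio of all genes from 0.00 to -0.11. Actc1 and Tnnt2 had TMM log2 ratios of 0.09 and 0.08, within that shift, so their direction depends on the scaling. Of the 4 shuttle enzymes, 4 were higher on the TMM scale, from 1.09-fold for Mdh1 to 1.31-fold for Got1. The part of cardiomyocyte content in these ratios was not tested.

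The 5 members lower in replicate 2 beyond counting error were Slc25a1, Slc25a17, Slc25a20, Slc25a23 and Slc25a36. Slc25a1 was the lowest of them, with 247 and 196 counts, a 0.816-fold ratio and an interval of 0.673 to 0.988. Slc25a20 was lower by little, with 5352 and 4966 counts and a 0.954-fold ratio, and by kallisto counts it was within counting error. The fat cell genes were lower in the same heart, with Plin1 at 9.67 and 1.27 TPM and Adipoq at 5.19 and 1.12 TPM. The enzyme Gpd1 of the glycerol phosphate shuttle stood at 30.2 and 19.6 TPM, a 0.658-fold ratio. The part of fat cell RNA in the lower members was not tested.

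Over all 39 members, 25 were higher and 14 lower in replicate 2, with a median log2 ratio of 0.06 beside 0.00 over all genes, and this direction depends on the scaling. With the spike-ins as the scale, 17 were higher and 22 lower, the median of all genes shifted to -0.11 and that of the members to -0.05.

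Which transcript a member's RNA comes from was read for the 37 members with a mean of at least 1 TPM and at least 2 annotated transcripts. The most abundant transcript was the same in all 4 tables for 28 of them, in both RSEM tables for 35 and in both kallisto tables for 30. In replicate 1 by RSEM, the leading transcript was protein-coding for 33 members and of another type for 4, which were Slc25a12, Slc25a53, Slc25a47 and Slc25a35. Slc25a53 and Slc25a47 were detected as genes, but none of their protein-coding transcripts reached 1 TPM by RSEM. Slc25a53-201 stood at 0.09 and 0.11 TPM, Slc25a53-214 at 0.06 and 0.12 TPM, and Slc25a47-201 at 0.59 and 0.6 TPM. Their other protein-coding transcripts were at 0. The detected member Slc25a27 had no transcript at 1 TPM by RSEM either. Its protein-coding Slc25a27-201 and Slc25a27-202 stood at 0.59 and 0.86 TPM and at 0.67 and 0.44 TPM. Slc25a4-201 held 94.6% and 93.0% of its gene's RSEM TPM and Slc25a5-201 held 99.6% and 99.4%. In contrast, Slc25a51-201 led its gene with 47.2% and 47.0%. The members for which the tables named different leaders included Slc25a51, Slc25a22, Slc25a36, Slc25a16, Slc25a32, Slc25a35, Slc25a27 and Slc25a14.

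Slc25a12 was the abundant member whose leading transcript is not of the protein-coding type. Slc25a12-207, of the type nonsense-mediated decay, held 66.7% and 68.8% of the gene's TPM by RSEM and 58.9% and 51.2% by kallisto. The coding transcript Slc25a12-206 held 8.02% and 8.14% by RSEM and 11.5% and 10.4% by kallisto. The models differ in more than the exon printed above. Slc25a12-206 is 6351 nt long with 18 exons and a last exon of 4291 nt, and Slc25a12-207 is 2392 nt long with 17 exons and ends within that exon after 664 nt. The tables do not say whether reads were assigned by the exon or by the end of the transcript, so they do not give the share of RNA that lacks the exon. By kallisto, the retained-intron transcript Slc25a12-202 stood at 14.6 TPM in replicate 1 against 35.2 TPM in replicate 2, and by RSEM at 1.34 and 1 TPM.

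**Figure D4:**
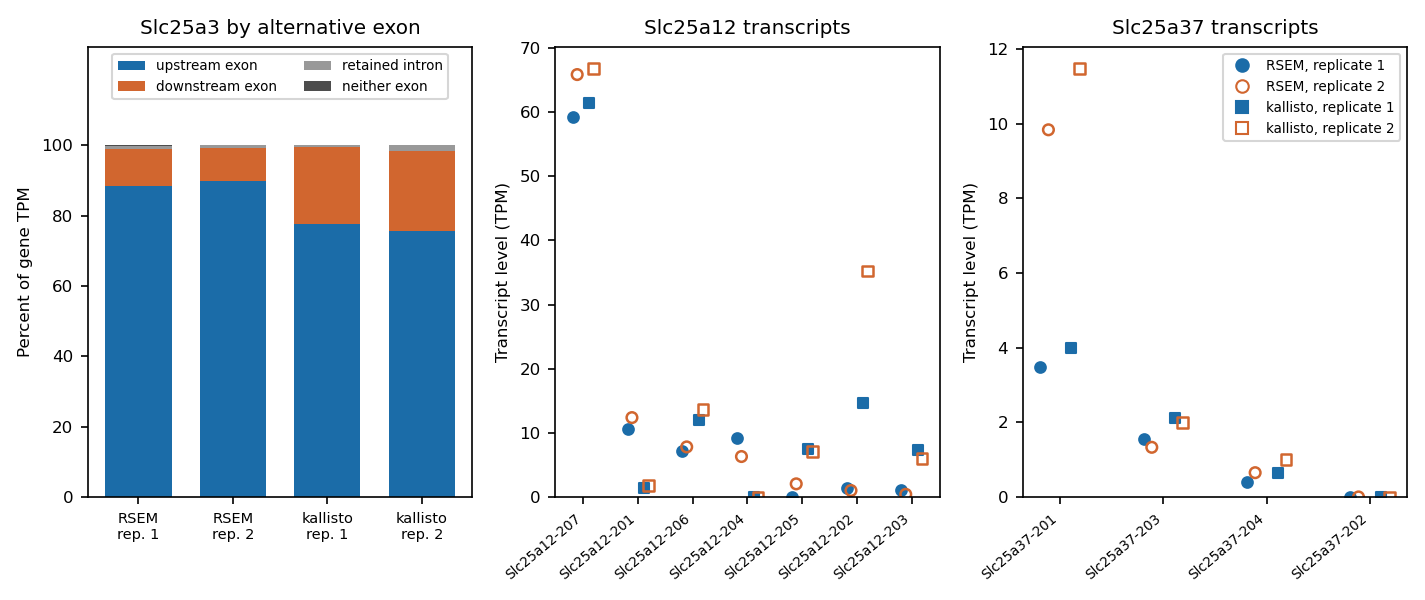
Left, share of Slc25a3 TPM in transcripts with the upstream exon, the downstream exon, a retained intron or neither exon, for each method and replicate; centre and right, TPM of each annotated transcript of Slc25a12 and Slc25a37 (circles RSEM, squares kallisto, filled replicate 1, open replicate 2). The upstream exon leads in all 4 bars, Slc25a12-207 leads in all 4 tables, and of the Slc25a37 transcripts Slc25a37-201 shows the wide gap between hearts.

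Levels from the 2 methods were close on a log scale but not equal. Kallisto TPM was above RSEM TPM for 36 of the 37 detected members, with a median ratio of 1.27 and a range of 0.958 for Slc25a51 to 2.05 for Slc25a16. Across the 47 members, mean TPM of the methods correlated with Pearson's r of 0.997 and Spearman's rho of 0.993 on the same reads. Members are not independent replicates, and this is a description. RSEM gave Slc25a16 11.9 and 10.8 TPM, and kallisto gave it 25.2 and 21.2 TPM. Most of the excess was in a short retained-intron transcript, Slc25a16-204, 398 nt long, with 0.32 and 0.27 TPM by RSEM and 10.4 and 8.16 TPM by kallisto. Below detection, Slc25a43 also differed over 2-fold, at a mean of 0.19 TPM by RSEM and 0.623 TPM by kallisto.

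**Figure D5:**
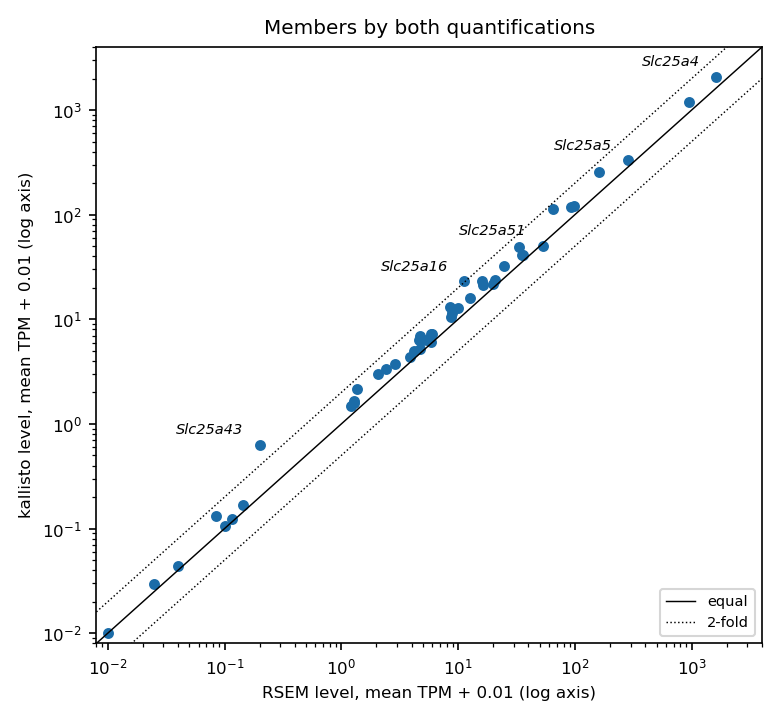
Mean kallisto TPM against mean RSEM TPM (each + 0.01, log axes) for the 47 members, with lines of equality and of 2-fold. Nearly all points lie a little above the line of equality, and Slc25a16 and Slc25a43 lie above the 2-fold line.

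Copies elsewhere in the transcriptome limit how well some members can be counted. Slc25a4 shared no stretch of 31 nt with another annotated gene. Slc25a5 shared 49.4% of its 31 nt stretches and 8.33% of its 100 nt stretches, most of them with Gm5560. The level of Slc25a5 is uncertain for this reason, but the shared percent does not give the size of the error, which was not measured. Gm5560 held 7.17 and 6.45 expected counts, beside 10181 and 10054 for Slc25a5. Slc25a37 shared 6.11% of its 100 nt stretches with Gm16867, which held 169 and 143 counts and so was not higher in replicate 2. Slc25a20 shared 2.36% of its 100 nt stretches. AC136710.2, a gene that shares them, held 3 and 0 counts by RSEM and 226 and 260 by kallisto. Of all members, 40 shared no 100 nt stretch and 23 no 31 nt stretch.

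Some members also overlap a gene on the other strand, and whether the counting used strand is not stated. The widest overlap was that of Slc25a35 with Rangrf, over 1151 bases or 31.3% of the exon bases of Slc25a35, where Rangrf had a mean of 17.2 TPM. Slc25a11 and Rnf167 shared 189 exon bases, with a mean of 20.3 TPM for Rnf167. Slc25a26 shared 144 exon bases with Lrig1, at a mean of 12.2 TPM, and Slc25a18 shared 32 with Atp6v1e1, at 66.8 TPM. Slc25a21 shared 189 with Pax9, at 0.095 TPM. Except for Rnf167, each of these partners was above the member. The levels of Slc25a35, Slc25a26, Slc25a18 and Slc25a21 are therefore uncertain, while that of Slc25a11 exceeded its partner's several-fold.

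The members are spread over 19 chromosomes, and 4 pairs lie within 50 kb of each other. Slc25a29 and Slc25a47 on chromosome 12 start 162 bases apart on opposite strands and were both low, with means of 1.21 and 2.07 TPM. The other pairs held an expressed and a nearly silent gene. Slc25a23, with a mean of 33.3 TPM, lies beside Slc25a41, with 0.015 TPM, on chromosome 17. Slc25a24, with 5.87 TPM, lies beside Slc25a54, with 0 TPM, on chromosome 3. Slc25a5, with 286 TPM, lies beside Slc25a43, with 0.19 TPM, on chromosome X.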

How the data were processed

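Total RNA from the heart of 2 mice was sequenced, 1 library per animal. Per the text deposited with the tables, the authors used assembly mm10 and annotation GENCODE M21. The deposited gene and transcript tables, made from transcriptome alignments, hold an expected count and TPM for each entry and, per the file headers, the percent of a gene's TPM in each transcript. A further deposited transcript table, made from reads and an index, holds an estimated count and TPM. The headers are those of RSEM and kallisto, and these names are used. No tool or version is given in the sources used here. TPM is scaled over all entries, spike-ins included. Reads were assigned on a C57BL/6J reference although the mice also carry CAST/EiJ chromosomes, and the effect of this was not tested. The labels call the animals biological replicates, but the spread between libraries may be partly technical.

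From these values, levels were given per library and as mean ± SD, and detection was set at 1 TPM in both. Pairs were read on log2(TPM + 0.1). For the hearts, expected counts were rounded to whole numbers, scaled by TMM (edgeR 4.0.16, R 4.3.3) and compared as ratios with exact (Clopper-Pearson) 95% intervals, with a prior count of 0.5 for log2 ratios. Intervals and floors cover counting error only, since amplified reads are not independent molecules. Entries that name no gene held 3.84 and 2.92 counts and were left out, as were the spike-ins with 218556 and 229051. No test between groups exists with 1 group, so no p-value was computed. The ratio step was tested on simulated data. Python 3.11.15, numpy 2.4.6, pandas 2.3.3, scipy 1.17.1, matplotlib 3.10.9 and biopython 1.88 were used.

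Each member is named except 1, which enters the counts but is not reported here. Values in both libraries are given for members with a mean of at least 20 TPM, for members of a pair, for those over 1.5-fold between hearts and for those over 2-fold between methods. Members, substrate groups, pairs and marker lists were chosen with earlier results of these data known. Alternatives were kallisto values, a protein-coding nuclear scale, other detection limits and pseudocounts, other scalings (DESeq2 1.42.0 size factors, total counts, spike-ins), no count filter, a lower fold, other transcript rules and each library alone.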

Additional observations from a re-analysis of the deposited data

How the results depend on the processing

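No paired analysis was possible because there is 1 group and no contrast. With either library left out, 38 members were detected, the median member level ran from 5.75 to 5.98 TPM, the 3 leading members held 77.8% to 78.7% of the family's TPM, and the leading transcript was the same by both methods for 31 to 33 of 37 members. The pair criterion needs an SD, so it has no value for a single library. Detection gave 39 members by kallisto, 39 on the scale of nuclear protein-coding genes, 39 at 0.5 TPM and 35 at 2 TPM. The median member level was 7.32 TPM by kallisto and 13.8 TPM on the nuclear protein-coding scale. The 3 leading members held 76.9% by kallisto. Under kallisto, the nuclear scale and pseudocounts of 0.01 and 1, 17 of 19 pairs were apart each time, though by kallisto Slc25a16/Slc25a42 was no longer apart (-0.03 ± 0.28) and Slc25a27/Slc25a14 was (0.04 ± 0.005). Members over 1.5-fold between hearts numbered 1 with spike-in scaling, which was Slc25a37, 6 without the count filter, with Slc25a2, Slc25a41, Slc25a43 and Slc25a48 added from a few counts each, 4 at a lower fold limit, with Slc25a33 and Slc25a35 added, and 3 by kallisto, with Slc25a43 added. Members beyond counting error numbered 16 with spike-in scaling, 6 higher and 10 lower, of which 11 are among the 17 of the TMM scale. For members with a mean of at least 10 TPM, the leading transcript was the same in all 4 tables for 12 of 17. Depth limits the members with few counts, such as Slc25a29, Slc25a35 and those under 1 TPM.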
